A study of Rattus norvegicus with 6 samples.

Results

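The enzymes that remove superoxide and peroxides were followed by the read counts of 10 genes, Sod1, Sod2, Sod3, Cat, Gpx1, Gpx4, Prdx1, Prdx2, Prdx5 and Prdx6. They were taken by gene symbol, with no threshold on a measured value, though with earlier results of these data known, from the 18930 genes of the count table, and each symbol had 1 row. The cells were NRK-52E, an established, wild-type epithelial line from rat kidney that the study uses as a model of the proximal tubule. RNA was sequenced from 3 samples kept for 24 h in STZ at 10 mM and from 3 samples that received vehicle (Control). STZ (streptozotocin) is a glucose-linked nitrosourea that alkylates DNA. The comparison asks how the transcriptome of these cells differs after STZ. The sources do not say whether the samples of a group were separate cultures, so every p-value here measures the spread between these samples, which may be technical.

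Superoxide is a by-product of respiration and of oxidase enzymes. Superoxide dismutases turn it into hydrogen peroxide, each in its own place: Sod1 in the cytosol with copper and zinc, Sod2 in the mitochondrial matrix with manganese, and Sod3 outside the cell. Hydrogen peroxide is then removed by catalase (Cat), a heme enzyme of peroxisomes, by glutathione peroxidases (Gpx), which draw on glutathione, and by peroxiredoxins (Prdx), most of which are reduced again by thioredoxin. Gpx1 and Gpx4 carry selenocysteine in the active site, and Gpx4 also reduces peroxidised lipids in membranes. The renal proximal tubule is rich in mitochondria and peroxisomes, and both are sources of these oxidants.

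Library totals were between 10430924 and 15191349 counts. Each of the 10 genes had between 413 and 10563 reads in every sample, so all 10 passed the filter on low counts, as did 11870 genes in all. Levels are given as CPM, the counts of a gene scaled to a common library total, with TMM scaling, with factors between 0.988 and 1.02. Transcript lengths were not used, so levels are compared between samples and not between genes. Among the defining markers, the epithelial keratin Krt8 had 11691 to 24040 reads per sample, whereas its usual partner Krt18 had 3 or fewer and Cdh1 had 16 to 35, and 6 of 8 proximal tubule markers, Lrp2, Cubn, Slc34a1, Slc5a2, Slc2a2 and Havcr1, had at most 10 reads in any sample. The defining transporters of the proximal tubule were thus at or near 0. Of 8 epithelial markers listed, 4 had a row in the count table, and of these only Krt8 and the junction gene Tjp1 were high. The other 2 proximal tubule markers were Aqp1, a water channel, which fell to 0.419 of its Control level, from 13.1 ± 3.68 to 5.43 ± 0.663 CPM (SD, n = 3 each), and Anpep, with 22 to 39 reads. Cdh1 also fell, with a log2 fold change of -0.69 and overlapping groups. Summed over the 8 proximal tubule markers, the level was 11.8 to 20.3 CPM in Control and 8 to 9.66 CPM in STZ. Summed over 6 fibroblast markers, the level was 99.5 to 111 CPM in Control and 56.1 to 66.7 CPM in STZ, with Col1a2, Pdgfra and Lum at 4 reads or fewer. Most of this fall was in Col3a1, from 53.9 ± 6.5 to 21.3 ± 2.31 CPM (SD, n = 3 each). Pdgfrb and Col1a1 had log2 fold changes of -0.33 and -0.27, with overlapping groups for Col1a1. The summed level of the 4 epithelial markers found in the table was 1700 to 1790 CPM in Control and 2280 to 2290 CPM in STZ, most of it from Krt8 and Tjp1. Endothelial, immune and erythroid markers summed to at most 4.14, 2.83 and 1.32 CPM in any sample. The part of these shifts in the results below was not tested. In such bulk samples, fewer cells of a kind and less RNA per cell cannot be told apart.

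Of the 10 enzyme genes, 4 were higher and 1 was lower with STZ than with vehicle, and 5 did not pass the test. Sod3 rose most, by 1.64-fold, and Gpx1 and Prdx1 each rose by 1.24-fold. Sod1 rose by 1.09-fold and Cat fell to 0.912 of its Control level. No enzyme gene reached an absolute log2 fold change over 1, the threshold that the study sets beside an adjusted p-value under 0.05. Called at the adjusted p-value alone, 50.9% of all genes tested differed, 25.9% being higher and 25.1% lower, and 3.37% passed both thresholds. The groups did not overlap for 4 enzyme genes that were higher and 1 that was lower, against 28.6% and 27.7% of all genes tested. The share of enzyme genes called, 50%, was therefore near the background. Their median log2 fold change was 0.04 against -0.01 over all genes tested, and their median absolute log2 fold change was 0.08 against 0.19.

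**Figure D1:**
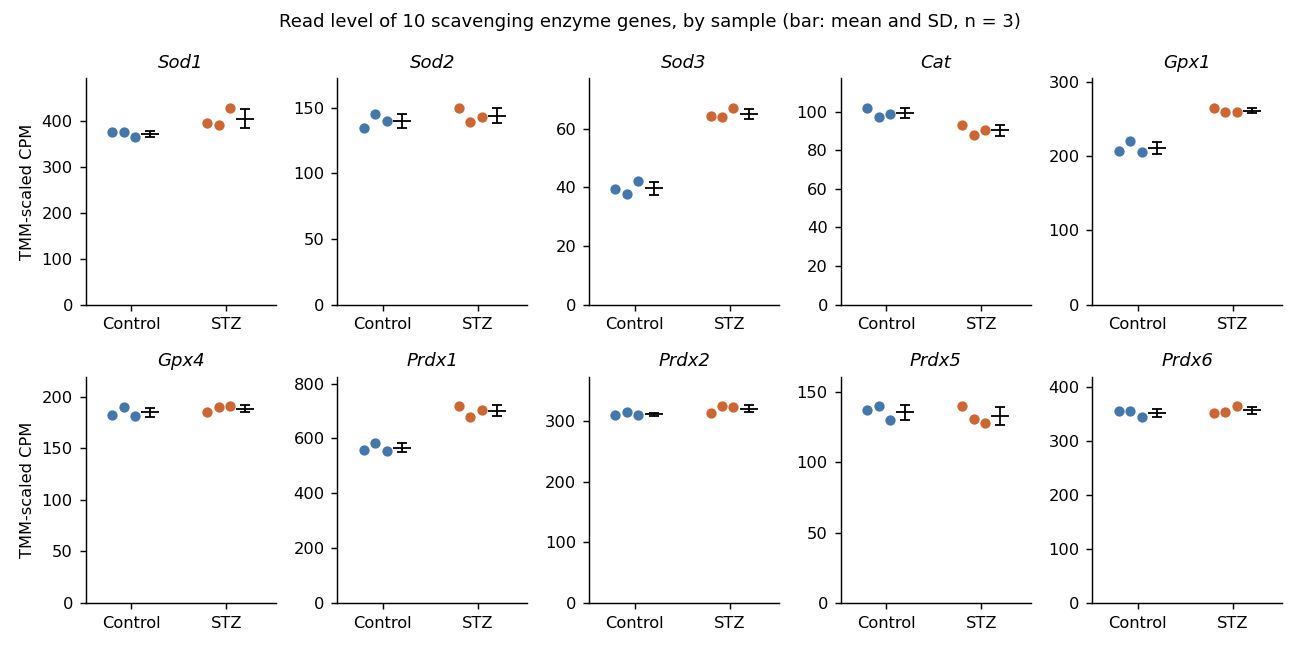
TMM-scaled CPM (vertical axis, from 0) of the 10 enzyme genes in each Control and STZ sample, with 1 point per sample and the mean and SD of 3 samples beside the points. The STZ points of Sod3, Gpx1, Prdx1 and Sod1 all lie above those of Control, the STZ points of Cat all lie below, and the groups of the other 5 genes overlap.

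Among the superoxide dismutases, the extracellular enzyme Sod3 changed most. Its levels were 39.6, 37.6 and 42 CPM in Control and 64.4, 64 and 67.1 CPM in STZ. All STZ samples lay far above all Control samples, and the spread within each group was small, with 39.7 ± 2.2 CPM in Control (SD, n = 3) and 65.2 ± 1.65 CPM in STZ (SD, n = 3). The log2 fold change was 0.71 (95% interval 0.59 to 0.83, standard error 0.06), with an adjusted p of 1.12e-13 by the quasi-likelihood test of edgeR, adjusted over all genes tested by the method of Benjamini and Hochberg. Of all genes tested, Sod3 stood at the 95.6th percentile of log2 fold change.

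Sod1, the cytosolic enzyme, had 375, 375 and 364 CPM in Control and 396, 390 and 428 CPM in STZ. The groups did not overlap, but STZ replicate 3 stood above the other two STZ samples. The log2 fold change was 0.12 (95% interval 0.05 to 0.20, adjusted p = 0.00603 by edgeR). Without STZ replicate 3 it was 0.08 and the gene no longer passed (adjusted p = 0.0981 by edgeR), against an adjusted p of at most 0.0429 in the other 16 alternative fits.

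Sod2, the mitochondrial enzyme, had 135, 145 and 140 CPM in Control and 150, 139 and 143 CPM in STZ. The groups overlapped, and the log2 fold change was 0.04 with a 95% interval from -0.05 to 0.13 (adjusted p = 0.426 by edgeR). The 95% interval of Sod3 did not overlap those of Sod1 and Sod2, but the difference between these changes was not itself tested.

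Catalase was the enzyme gene that fell. Cat had 102, 97.2 and 98.6 CPM in Control and 93.2, 87.7 and 90.4 CPM in STZ. Each STZ sample lay below each Control sample, but the gap between the groups was about as wide as the spread within them. The log2 fold change was -0.13 (95% interval -0.23 to -0.04, adjusted p = 0.0167 by edgeR). Cat kept its direction but lost the call without Control replicate 1 (log2 fold change -0.12, adjusted p = 0.0723 by edgeR) and without STZ replicate 2 (-0.11, adjusted p = 0.0729 by edgeR).

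The glutathione peroxidases parted. Gpx1, the abundant enzyme that reduces hydrogen peroxide in the cytosol and mitochondria, had 207, 221 and 205 CPM in Control and 265, 259 and 260 CPM in STZ. The 3 STZ samples were close together and clear of the Control samples. The log2 fold change was 0.31 (95% interval 0.23 to 0.39, adjusted p = 1.3e-08 by edgeR). Gpx4, which protects membrane lipids, had 183, 190 and 182 CPM in Control and 185, 190 and 191 CPM in STZ. Its groups overlapped, and the log2 fold change was 0.03 (95% interval -0.05 to 0.11, adjusted p = 0.586 by edgeR).

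Among the peroxiredoxins, Prdx1 rose and the other 3 did not pass the test. Prdx1, a cytosolic peroxiredoxin that thioredoxin reduces, had 559, 584 and 554 CPM in Control and 717, 678 and 705 CPM in STZ. The groups were far apart relative to their spread. The log2 fold change was 0.31 (95% interval 0.24 to 0.38, adjusted p = 1.45e-09 by edgeR), close to that of Gpx1. Prdx2, the nearest relative of Prdx1 in the cytosol, had 309, 314 and 310 CPM in Control and 313, 324 and 322 CPM in STZ. Its log2 fold change was 0.04 (95% interval -0.03 to 0.12, adjusted p = 0.378 by edgeR), and its groups overlapped only through STZ replicate 1.

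Prdx5, found in mitochondria, peroxisomes and cytosol, had 137, 140 and 130 CPM in Control and 140, 131 and 128 CPM in STZ. The log2 fold change was -0.03 (95% interval -0.12 to 0.06, adjusted p = 0.624 by edgeR). Prdx6, which uses glutathione and also reduces phospholipid peroxides, had 357, 356 and 345 CPM in Control and 352, 355 and 365 CPM in STZ. Its log2 fold change was 0.02 (95% interval -0.06 to 0.09, adjusted p = 0.699 by edgeR). For Sod2, Gpx4, Prdx2, Prdx5 and Prdx6, these intervals place the log2 fold change between -0.12 and 0.13. That their adjusted p-values missed the threshold does not show that these genes were unchanged.

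**Figure D2:**
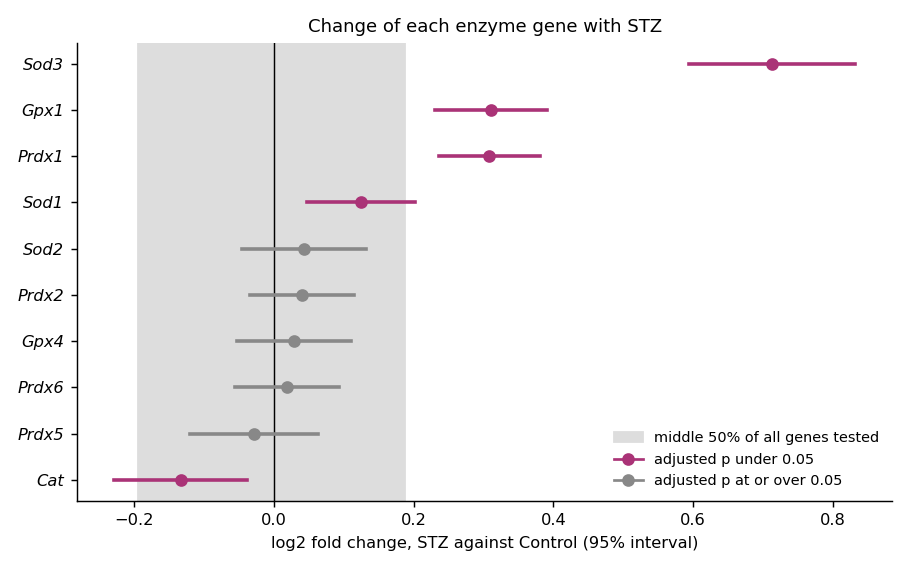
Log2 fold change of STZ against Control (horizontal axis) for the 10 enzyme genes, as points with 95% intervals, coloured by whether the adjusted p-value was under 0.05. The grey band holds the middle 50% of all genes tested, from -0.194 to 0.187, and Sod3, Gpx1 and Prdx1 lie above it.

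The counts of these genes can carry reads of near-identical copies. In RefSeq (GRCr8), 7 pseudogenes bear the name of Prdx1, 4 that of Gpx4, 3 that of Prdx6 and 1 that of Sod2. Only uniquely mapped reads were counted, so reads that fit a gene and its copy equally well are missing from these values, and the levels of Prdx1, Gpx4, Prdx6 and Sod2 are uncertain to that extent. Copies under other names were not searched for, so the same limit may hold for the other enzyme genes. The gene span of Prdx5 overlaps the protein-coding gene Trmt112, that of Prdx6 a long non-coding RNA, and that of Cat a pseudogene. Whether the counting used strand is not given in the sources used here. The spans of the other 7 genes overlap no other gene.

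The ratio of the counts of a pair of enzyme genes within 1 sample does not depend on how libraries are scaled, and 6 such ratios were compared. The count ratio of Gpx4 to Gpx1, on the log2 scale, was -0.18, -0.22 and -0.17 in Control and -0.52, -0.45 and -0.45 in STZ, so the glutathione peroxidases shifted toward Gpx1 in every STZ sample. The difference between the group means was -0.28 (exact two-sided permutation p = 0.1, the smallest that 3 against 3 allows, and 0.12 after Benjamini-Hochberg adjustment over the 6 ratios). The log2 ratio of Prdx2 to Prdx1 was -0.85, -0.89 and -0.84 in Control and -1.19, -1.06 and -1.13 in STZ, a difference of -0.27. The log2 ratios of Prdx5 to Prdx1 and of Prdx6 to Prdx1 fell by 0.34 and by 0.29. In these 3 ratios no STZ sample overlapped the Control samples, and the exact permutation p was 0.1 for each. They share Prdx1, as 2 of the ratios share Gpx1, so the 6 are not independent. Prdx1 and Gpx1, the second genes of all ratios that fell, were themselves called higher with STZ. These ratios therefore largely repeat the changes of single genes and give no separate support. With 3 samples against 3, no ratio could reach an exact permutation p under 0.05.

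The largest shift was between catalase and Gpx1, which clear the same substrate in different places. The log2 ratio of Cat to Gpx1 was -1.02, -1.18 and -1.05 in Control and -1.51, -1.56 and -1.52 in STZ. The ratio thus decreased by 26.6% with STZ (log2 difference -0.45, exact permutation p = 0.1). The ratio of Sod2 to Sod1 had overlapping groups and a log2 difference of -0.08 (exact permutation p = 0.2).

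**Figure D3:**
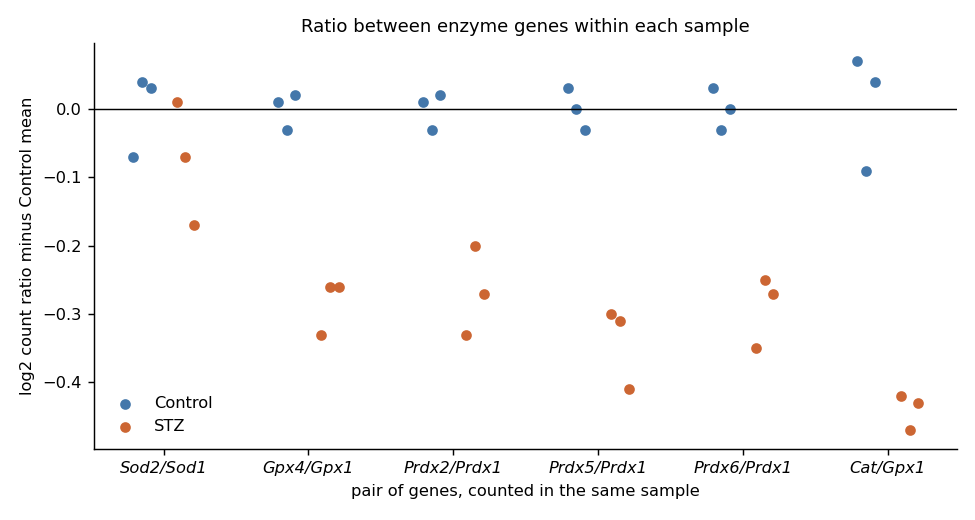
Log2 ratio of the counts of a pair of enzyme genes in the same sample, minus the mean of the 3 Control samples (vertical axis), with 1 point per sample, for 6 pairs of genes. In 5 pairs all STZ points lie below all Control points, by 0.27 to 0.45 on average, and in Sod2/Sod1 the groups overlap. Of all single genes tested, 56.3% had groups that did not overlap, and no such share was computed for other gene pairs.

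The 10 genes together took 0.244%, 0.248% and 0.239% of all counted reads in Control and 0.264%, 0.259% and 0.266% in STZ. Most of these reads came from Prdx1, Sod1, Prdx6 and Prdx2 in every sample. Prdx1 made up 23.5% ± 0.252 of the reads of the 10 genes in Control (SD, n = 3) and 26.3% ± 0.47 in STZ (SD, n = 3). The share of Gpx1 went from 8.74% ± 0.211 to 9.81% ± 0.151 (SD, n = 3 each), and that of Sod3 from 1.65% ± 0.121 to 2.45% ± 0.0392 (SD, n = 3 each). The share of Cat went from 4.12% ± 0.152 to 3.39% ± 0.0771 (SD, n = 3 each). Because shares add up to a fixed whole, a larger share of Prdx1 lowers the others, and the shares of Sod2, Gpx4, Prdx2, Prdx5 and Prdx6 were also lower in every STZ sample than in every Control sample.

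The promoters of the enzyme genes were searched for the core of the antioxidant response element, TGACNNNGC, the DNA motif bound by Nrf2 (Nfe2l2), the regulator of many antioxidant genes. RefSeq promoters (GRCr8), each running from 250 bases before to 50 bases after a transcription start, were found for 8 of the 10 genes, Sod3 and Prdx6 being the others, and numbered 10 because Gpx4 has several starts. On either strand, the core was found in the promoters of Prdx1, Sod2 and Prdx5, that is in 3 of 10 promoters, against 12.1% of all 33469 promoters and 14.7% of those of the genes tested. These 3 promoters are shown with that of Gpx1, because the rise of Gpx1 was close in size to that of Prdx1. The sequences run 5′ to 3′ in the direction of the gene, and capitals mark the match.
Prdx1, chr5:135383656-135383955, plus strand: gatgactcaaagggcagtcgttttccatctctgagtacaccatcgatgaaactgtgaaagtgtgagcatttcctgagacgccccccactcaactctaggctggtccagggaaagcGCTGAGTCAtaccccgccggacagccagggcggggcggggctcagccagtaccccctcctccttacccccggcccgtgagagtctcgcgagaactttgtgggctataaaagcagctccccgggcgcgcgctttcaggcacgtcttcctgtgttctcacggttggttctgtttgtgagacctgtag
Sod2, chr1:50050119-50050418, minus strand: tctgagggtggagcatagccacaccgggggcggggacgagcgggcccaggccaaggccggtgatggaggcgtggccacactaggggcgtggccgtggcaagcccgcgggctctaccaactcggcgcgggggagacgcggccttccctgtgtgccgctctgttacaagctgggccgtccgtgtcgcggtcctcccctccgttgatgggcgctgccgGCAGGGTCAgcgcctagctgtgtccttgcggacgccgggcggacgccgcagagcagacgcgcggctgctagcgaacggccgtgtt
Prdx5, chr1:213531978-213532277, minus strand: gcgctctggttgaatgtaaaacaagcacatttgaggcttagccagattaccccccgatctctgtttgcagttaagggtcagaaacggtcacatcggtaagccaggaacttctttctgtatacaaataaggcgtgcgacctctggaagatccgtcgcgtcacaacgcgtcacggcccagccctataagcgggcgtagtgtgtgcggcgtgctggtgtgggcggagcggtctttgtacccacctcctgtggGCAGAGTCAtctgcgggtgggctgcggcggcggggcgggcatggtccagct
Gpx1, chr8:117905212-117905511, plus strand: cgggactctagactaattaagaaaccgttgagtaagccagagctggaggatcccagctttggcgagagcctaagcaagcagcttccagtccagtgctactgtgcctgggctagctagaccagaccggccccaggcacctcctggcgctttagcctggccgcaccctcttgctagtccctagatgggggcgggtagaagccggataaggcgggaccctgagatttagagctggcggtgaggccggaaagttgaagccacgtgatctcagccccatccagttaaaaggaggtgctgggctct
In Prdx1 the match reads TGACTCAGC on the strand opposite the gene, and its first base along the gene lies at position -135 from the start. In Sod2 it reads TGACCCTGC and lies at -35, and in Prdx5 it reads TGACTCTGC and begins at -1, both again on the opposite strand. Of the 3 genes with a match, Prdx1 rose, whereas Sod2 and Prdx5 did not pass the test. Gpx1, which rose, and Cat, which fell, had no match in this window, nor did Sod1, Gpx4 and Prdx2. A match in letters is a description and not a binding site, and a window without one says nothing about the factor.

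The same promoters were also read for common core elements, a choice made after the values were seen. The GC box GGGCGG stood in the promoters of 7 of the 8 genes, Cat being the exception, against 33.1% of all promoters and 62.9% of those of the genes tested. The CCAAT box was found in Cat, Gpx4 and Sod1, and the TATA box TATAAA in Prdx1 and Sod1, against 37.5% and 14.2% of all promoters and 37.8% and 6.29% of those of the genes tested. The GC content of the 10 promoters was between 58.3% and 72%, with a median of 63.6% against 61% for the genes tested.

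Genes around the enzymes were placed in 10 lists. Some supply electrons, metals and selenium or serve peroxisome import. Others are related peroxidases, other selenoproteins, oxidant sources, lipid peroxidation partners of Gpx4 and transcription regulators. In all, 91 of these genes passed the filter. With STZ, 22 were higher and 24 lower at an adjusted p-value under 0.05 (50.5%, against 50.9% of all genes tested), with a median log2 fold change of 0.02. The lists are described by their counts alone, beside the background of 25.9% higher and 25.1% lower.

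Other peroxidases moved in both directions. Of 4 tested, Gpx8 and Gpx7, glutathione peroxidase relatives of the endoplasmic reticulum, rose, with log2 fold changes of 0.53 and 0.17. Gpx8 had 361 ± 16.6 CPM in Control and 521 ± 14.6 CPM in STZ (SD, n = 3 each). Prdx3, the peroxiredoxin of the mitochondrial matrix, fell by 0.17 on the log2 scale, from 101 ± 2.16 to 90.4 ± 0.321 CPM (SD, n = 3 each, adjusted p = 0.00272 by edgeR). Prdx4, of the endoplasmic reticulum, had a log2 fold change of -0.03 and did not pass. Gpx2 and Gpx3 had 10 reads or fewer in every sample.

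The thioredoxin system, which returns electrons to Prdx1, Prdx2, Prdx3 and Prdx5, had 1 gene higher and 4 lower of 7 tested. Txnrd1, the cytosolic thioredoxin reductase, rose by 0.31 on the log2 scale, from 334 ± 17.5 to 414 ± 23.5 CPM (SD, n = 3 each, adjusted p = 2.79e-08 by edgeR). Txnrd2, its mitochondrial counterpart, fell from 15.4 ± 0.661 to 10.1 ± 1.49 CPM (SD, n = 3 each), with a log2 fold change of -0.61. Txnrd3 fell with a log2 fold change of -0.64. Both thioredoxins fell slightly, cytosolic Txn1 with a log2 fold change of -0.12 and mitochondrial Txn2, named after its values were seen, with one of -0.14.

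The genes of glutathione supply and reduction split, with 4 higher and 2 lower of 12 tested. Idh1, a cytosolic source of NADPH, fell with a log2 fold change of -0.57. Glrx3, a glutaredoxin that handles iron-sulfur clusters, rose by 0.52, and Me1, another source of NADPH, by 0.21. Slc3a2, the heavy chain of the cystine transporter, rose by 0.22. Its partner in that transporter, Slc7a11, named after its values were seen, had 9 to 17 reads per sample and did not pass (log2 fold change -0.30). Among genes outside the naming rule, chosen after their values were seen because they make or reduce glutathione, Gclm rose by 0.21 and Gsr fell by 0.12 on the log2 scale, while Gclc (0.05) and Gss (-0.07) did not pass.

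Of the genes that supply copper and manganese to the dismutases, 2 of 6 tested were higher and none was lower. Atp7a, the copper pump that loads secreted copper enzymes such as Sod3, rose from 61.9 ± 2.5 to 82.3 ± 2.44 CPM (SD, n = 3 each), a log2 fold change of 0.41 (adjusted p = 1.1e-08 by edgeR). Slc31a1, the copper importer, rose by 0.11. Atox1, the chaperone that hands copper to Atp7a, had a log2 fold change of 0.13 (adjusted p = 0.0565 by edgeR), and Ccs, which hands it to Sod1, one of 0.11 (adjusted p = 0.099 by edgeR), and neither passed. The metallothionein genes Mt1 and Mt2A had at most 11 reads in any sample. The number called in this list was 1 without STZ replicate 1 and 1 with library size as the only scaling.

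Gpx1 and Gpx4 need selenocysteine. Among 8 genes listed for selenocysteine synthesis and insertion and for selenium uptake, 5 were lower and 1 was higher. Sephs1, Secisbp2, which binds the selenocysteine element of the mRNA, Eefsec, the elongation factor, and Lrp8, a receptor for selenoprotein P, fell with log2 fold changes of -0.52, -0.38, -0.40 and -0.26. Sephs1 is a relative of Sephs2, the enzyme that makes selenophosphate, and Sephs2 itself, named after its values were seen, did not pass (log2 fold change -0.05). The median of the list was -0.27. The gene that was higher, Trnau1ap, named after its values were seen, had overlapping groups (log2 fold change 0.16, adjusted p = 0.0495 by edgeR). The 6 calls in this list became 5 in 10 of 17 alternative fits. Of 11 other selenoprotein genes, 3 were higher and 1 lower, with a median of 0.04. Selenos, of the endoplasmic reticulum, rose by 0.27, Selenoh by 0.17 and Selenon by 0.15 on the log2 scale. Selenof fell by 0.10 with overlapping groups (adjusted p = 0.0237 by edgeR). The 4 calls became 2 without Control replicate 2, without STZ replicate 2 or without STZ replicate 3.

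Genes that make superoxide or hydrogen peroxide were higher in 3 of 9 tested and lower in none. The number called was 2 in 11 of 17 alternative fits, 5 of them with 1 sample left out. Ero1a, an oxidase of the endoplasmic reticulum that yields hydrogen peroxide, rose from 199 ± 9.41 to 245 ± 7.74 CPM (SD, n = 3 each), a log2 fold change of 0.29. Xdh, xanthine dehydrogenase, rose by 0.12 with overlapping groups (adjusted p = 0.0411 by edgeR), and Maoa, a monoamine oxidase of mitochondria, had a log2 fold change of -0.08 and did not pass.

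Catalase is carried into peroxisomes by the Pex5 receptor. Pex5 fell from 76.9 ± 2.93 to 62.2 ± 1.06 CPM (SD, n = 3 each), a log2 fold change of -0.31. Of the 13 peroxisome genes, 2 were higher and 3 lower. Pex26 and Pex10 fell, with log2 fold changes of -0.52 and -0.38. Pex10 belongs to the ring complex that recycles Pex5, and Pex26 anchors the export complex to the peroxisome.

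Genes that act on the same membrane lipids as Gpx4 moved in both directions. Acsl4 and Lpcat3, which put polyunsaturated fatty acids into membrane phospholipids, fell with log2 fold changes of -0.33 and -0.34, Acsl4 from 152 ± 13.7 to 121 ± 1.85 CPM and Lpcat3 from 179 ± 6.41 to 142 ± 4.49 CPM (SD, n = 3 each). Gch1, the first enzyme of tetrahydrobiopterin synthesis, rose by 1.22 on the log2 scale, from 35, 38 and 47 reads in Control to 97, 101 and 129 in STZ (adjusted p = 3.62e-08 by edgeR). Pebp1, a partner of lipoxygenases, rose by 0.13. In all, 3 of 7 genes of this list were higher and 2 lower.

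Of 14 regulators of the enzyme genes, 1 was higher and 6 were lower. Nfe2l2 and Keap1, Nrf2 and its inhibitor, had log2 fold changes of 0.06 and 0.05 and did not pass (both named after their values were seen). Mafk, a small Maf protein that binds DNA together with Nrf2, rose by 0.86, from 34, 39 and 36 reads in Control to 83, 56 and 94 in STZ. Of the other small Maf genes, named after their values were seen, Mafg fell from 109 ± 1.68 to 96.9 ± 4.59 CPM (SD, n = 3 each, log2 fold change -0.17), and Maff had a log2 fold change of 0.03 and did not pass. Sp1, which binds GC boxes, Foxo4, a forkhead factor, and Nfkb1, a subunit of NF-kB, fell with log2 fold changes of -0.30, -0.37 and -0.25.

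**Figure D4:**
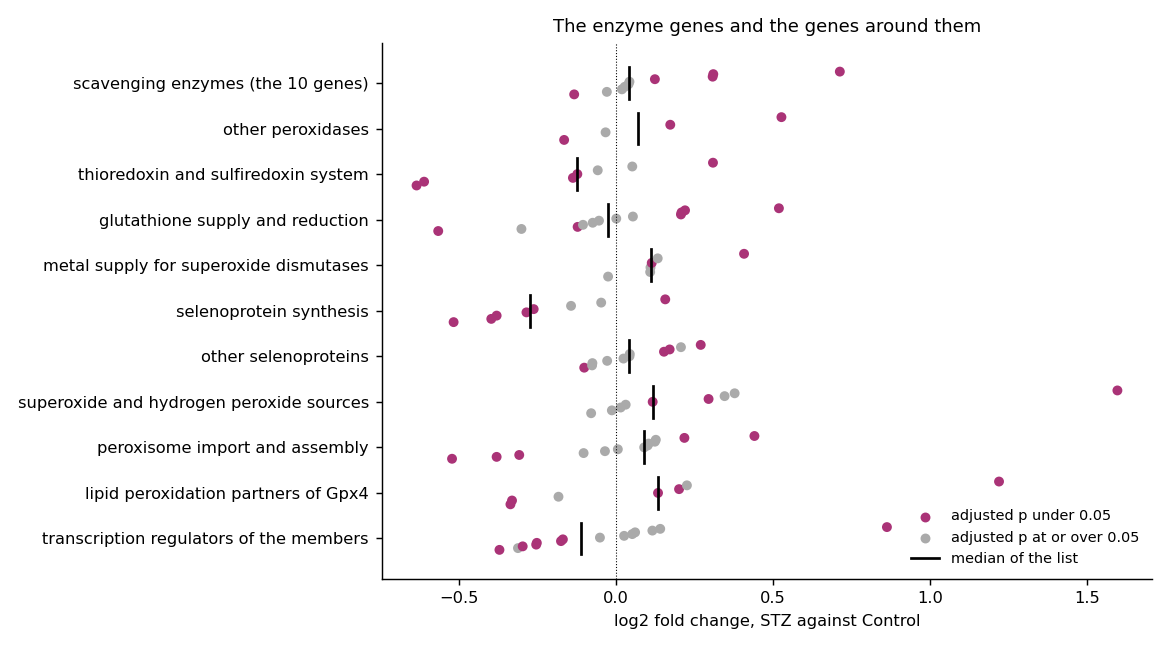
Log2 fold change of STZ against Control (horizontal axis) for each gene tested among the 10 enzyme genes and 10 lists of genes around them (rows), with 1 point per gene, coloured by whether the adjusted p-value was under 0.05, and a black line at the median of each list. The enzyme genes lie between -0.13 and 0.71, and the medians of the 10 lists lie between -0.27 and 0.13.

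For Sod3, the enzyme gene with the smallest p, the genes most alike across the 6 samples were sought among 9837 named genes with a mean of at least 50 normalized counts. Likeness was the root mean square difference of log2 CPM after each gene was centred on its own mean. Dhx58, Ppl and Fat1 were nearest, with differences of 0.021, 0.028 and 0.029 and log2 fold changes of 0.73, 0.69 and 0.75. In 2 groups of samples this mostly finds genes with a like fold change.

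Leaving out 1 of the 6 samples at a time moved Sod3 between 0.67 and 0.76, Gpx1 between 0.29 and 0.34 and Prdx1 between 0.29 and 0.33 on the log2 scale. These 3 genes passed the test in all 17 alternative fits, Sod1 in 16 and Cat in 15, and the other 5 genes in none.

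**Figure D5:**
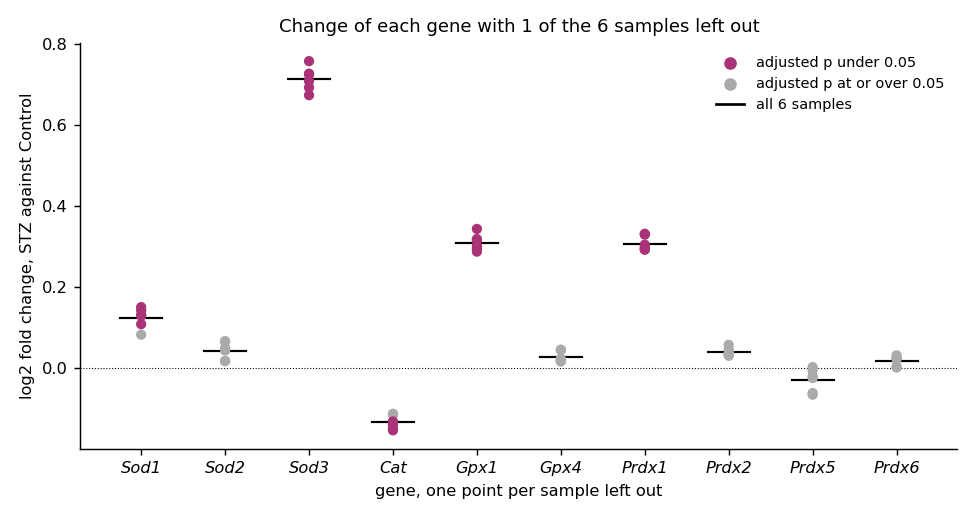
Log2 fold change of STZ against Control (vertical axis) of each enzyme gene with 1 of the 6 samples left out (1 point per sample left out), and with all 6 samples (black line). Points of Sod3, Gpx1 and Prdx1 all keep an adjusted p-value under 0.05, while Sod1 loses it in 1 fit and Cat in 2.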

How the data were processed

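Total RNA of NRK-52E cells was made into TruSeq stranded mRNA libraries and sequenced in 100-base single-end mode. The authors aligned them with STAR 2.7.10a to Rnor6, a rat assembly, used featureCounts on the uniquely mapped ones, and deposited the raw counts of each gene in a column per sample. All 6 columns were used. From these counts, TMM factors, CPM, the filter (filterByExpr, defaults), dispersions and the quasi-likelihood test were computed over the whole table by edgeR 4.0.16 (R 4.3.3), and p-values were adjusted over the 11870 genes tested (Benjamini-Hochberg). Standard errors and 95% intervals were derived from the F statistic of the test. The smallest exact two-sided permutation p with 3 samples against 3 is 0.1, so it was used for the count ratios only (scipy 1.17.1). No pair of replicates looked like 1 library deposited again (chi-square per degree of freedom at least 1.85).

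The enzyme genes and lists were chosen with earlier results of these data known. Named are the 10 enzyme genes, the 4 genes with the smallest p in each list, and the 3 genes most like the enzyme gene with the smallest p. Alternatives were 3 filters on low counts, 3 library scalings, 4 tests (edgeR's likelihood ratio and exact tests, DESeq2 1.42.0, limma-voom 3.58.1), the replicate number as a block, glmTreat, 0.5 added to counts in ratios, and each sample left out. The test was checked on simulated counts. Promoter sequences, pseudogene names and overlaps came from RefSeq (GRCr8), a different build from that of the counts, so no coordinate was joined to them. Protein sequences were not used here. A few genes that this rule picks are counted in their lists, but their own values are not reported here.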

Additional observations from a re-analysis of the deposited data

How the results depend on the processing

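Over 17 alternatives for each of the 10 enzyme genes, 163 of 170 refits kept the direction and the side of the threshold. The number of enzyme genes called lower was 0 to 1 with 1 sample left out, 0 without Control replicate 1 and 0 without STZ replicate 2, in both cases through Cat, and the cause was not tested. Sod1 was not called without STZ replicate 3. Among genes that never passed, the sign changed for Prdx6 with the upper quartile (-0.001) and library size only (-0.015), for Gpx4 with library size only (-0.005), and for Prdx5 without STZ replicate 3 (0.003; -0.065 to 0.003 over the samples left out). Among the 10 lists, 165 of 170 counts stayed within 1.5 times. Control and STZ share replicate numbers, and their deviations from the group means correlated by 0.0318, -0.0389 and 0.101 for numbers 1, 2 and 3 (10341 genes). Of 6 samples, 3 correlated best with their own number. These values showed no clear pairing, though 3 samples per group cannot exclude one. With the replicate block, 5 enzyme genes were called, 4 higher and 1 lower, as without it. Standard errors were larger for genes with fewer reads, 0.059 for Sod3 and 0.047 for Cat against 0.036 for Prdx1.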

Other observations

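Alox5, which encodes arachidonate 5-lipoxygenase, an enzyme that makes lipid hydroperoxides, was noticed after its values were seen. It had 0, 0 and 0 reads in the Control samples and 6, 8 and 9 in the STZ samples, and did not pass the filter on low counts, so it was not tested. The related gene Alox15 had 2 reads or fewer in every sample, and Alox12 had 6 to 15.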
